A study of Mus musculus with 12 samples.

Results

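Transcripts of the constitutive proteasome were examined in the anterior prostate of APT121 and wild type mice. The genes were taken by symbol: every gene whose symbol begins with Psma, Psmb, Psmc, Psmd, Psme, Psmf or Psmg followed by a digit, without the inducible catalytic subunits Psmb8, Psmb9 and Psmb10. This rule found 47 genes among the 19935 genes with a single symbol on the array. They comprise 14 subunits of the core particle, 17 subunits of the regulatory particle, 3 chaperones of the regulatory particle, 4 chaperones of the core, and 5 alternative activators or inhibitors. The other 4 are 2 tissue-restricted core variants (Psma8 and Psmb11) and 2 genes that carry such a symbol without being subunits (Psmc3ip and Psme3ip1). The rule used no measured value.

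RNA was read on Affymetrix Mouse Gene 1.0 ST arrays, which measure a gene through a set of probes along its transcript (a transcript cluster). There were 4 APT121 arrays from 8 mice and 8 wild type arrays from 16 mice, and each array held pooled RNA of 2 mice. All mice were males of 12 weeks, of the F3 generation of mixed C57BL/6J and DBA/2 descent, kept on the semi-purified AIN93G diet from 3 weeks of age. As background, APT121 mice carry T121, a fragment of the SV40 large T antigen that inactivates the pRb family, under the probasin promoter, which is active in prostate epithelium. The labels describe APT121 tissue as PIN lesion (prostatic intraepithelial neoplasia) and wild type tissue as normal. Whole lobes were used, so fewer cells of a type and less RNA per cell cannot be told apart, and p-values speak only of the spread among pools.

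The proteasome is the protease that degrades proteins tagged with ubiquitin. Its core particle is a barrel of stacked rings: outer rings of alpha subunits gate the entrance, and inner rings of beta subunits hold the proteolytic sites. The regulatory particle caps the barrel: its base unfolds substrates with a ring of ATPases, and its lid removes the ubiquitin chain. Secretory epithelium, such as that of the prostate, makes large amounts of protein, and the proteasome also degrades cyclins and CDK inhibitors at the transitions of the cell cycle. In many cells the transcription factor NRF1 (Nfe2l1) raises proteasome genes together.

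Genotypes differed widely across the array, so counts of changed genes have to be read against the shares over all genes. Of all 19935 genes, 52.8% passed an adjusted p of 0.05 (limma, Benjamini-Hochberg over all genes), 22.8% as higher and 30% as lower in APT121. The median APT121 minus wild type difference over all genes was -0.09 on the log2 scale. Over the genes with a mean intensity above that of the median gene it was 0.03. Wild type array 6 stood apart by seminal vesicle transcripts, with a summed intensity over 6 markers of 13607 against 82 to 174 in the other wild type arrays, and the 4 APT121 arrays ranged from 1431 to 15001. Adipose markers (5 of 6 measured) summed to 141 to 484 in wild type, highest in array 7, and to 115 to 156 in APT121. All measured luminal, basal, smooth muscle and fibroblast markers had a mean intensity above that of the median gene, and 3 of the adipose and 3 of the seminal vesicle markers had one below it. Of 7 measured luminal markers 3 were higher and 3 lower, and all 4 basal, 6 smooth muscle, 6 fibroblast and 5 endothelial markers were lower in APT121. Of 7 myeloid markers 6 were higher, with summed intensities of 500 to 1145 in APT121 against 427 to 565 in wild type. Of 5 lymphocyte markers 2 were higher and 1 lower, with sums of 85 to 121 in APT121 against 62 to 75 in wild type, and all 5 had a mean intensity below that of the median gene. The part of these cell type differences in the results below was not tested.

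Proteasome genes moved in both directions and by small amounts. Of the 47, 9 were higher in APT121, 13 were lower and 25 did not pass the threshold, so 46.8% passed, beside 52.8% of all genes. Every APT121 array lay above every wild type array for 7 genes and below for 7, that is 14 of 47, where 34.6% of all genes did not overlap. None of the 47 changed by 2-fold, which 7.71% of all genes did, and only Psme1 passed 1.5-fold, which 17.9% did. The median difference of the 47 was -0.03, and the median absolute difference was 0.18 against 0.23 for all genes. Of the 47, 43 had a mean intensity above that of the median gene. Among these 22 passed, 51.2%, beside 71.2% of all genes above the median, and their median absolute difference was 0.18 beside 0.35. Without wild type array 6, 9 of the 47 were higher and 10 lower, and 51.1% of all genes passed. The same counts held without wild type arrays 5, 6 and 7, where 46.7% of all genes passed. After repeated quantile normalisation 7 were higher and 18 lower, beside 3880 higher and 5498 lower of all 19935 genes (47.0% past). In that fit the share of the 47 that passed was the larger one. Each of the 5 genes with more than 1 transcript cluster (Psma3, Psma5, Psmb3, Psmc1 and Psmd2) had differences of the same sign in all its clusters.

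**Figure D1:**
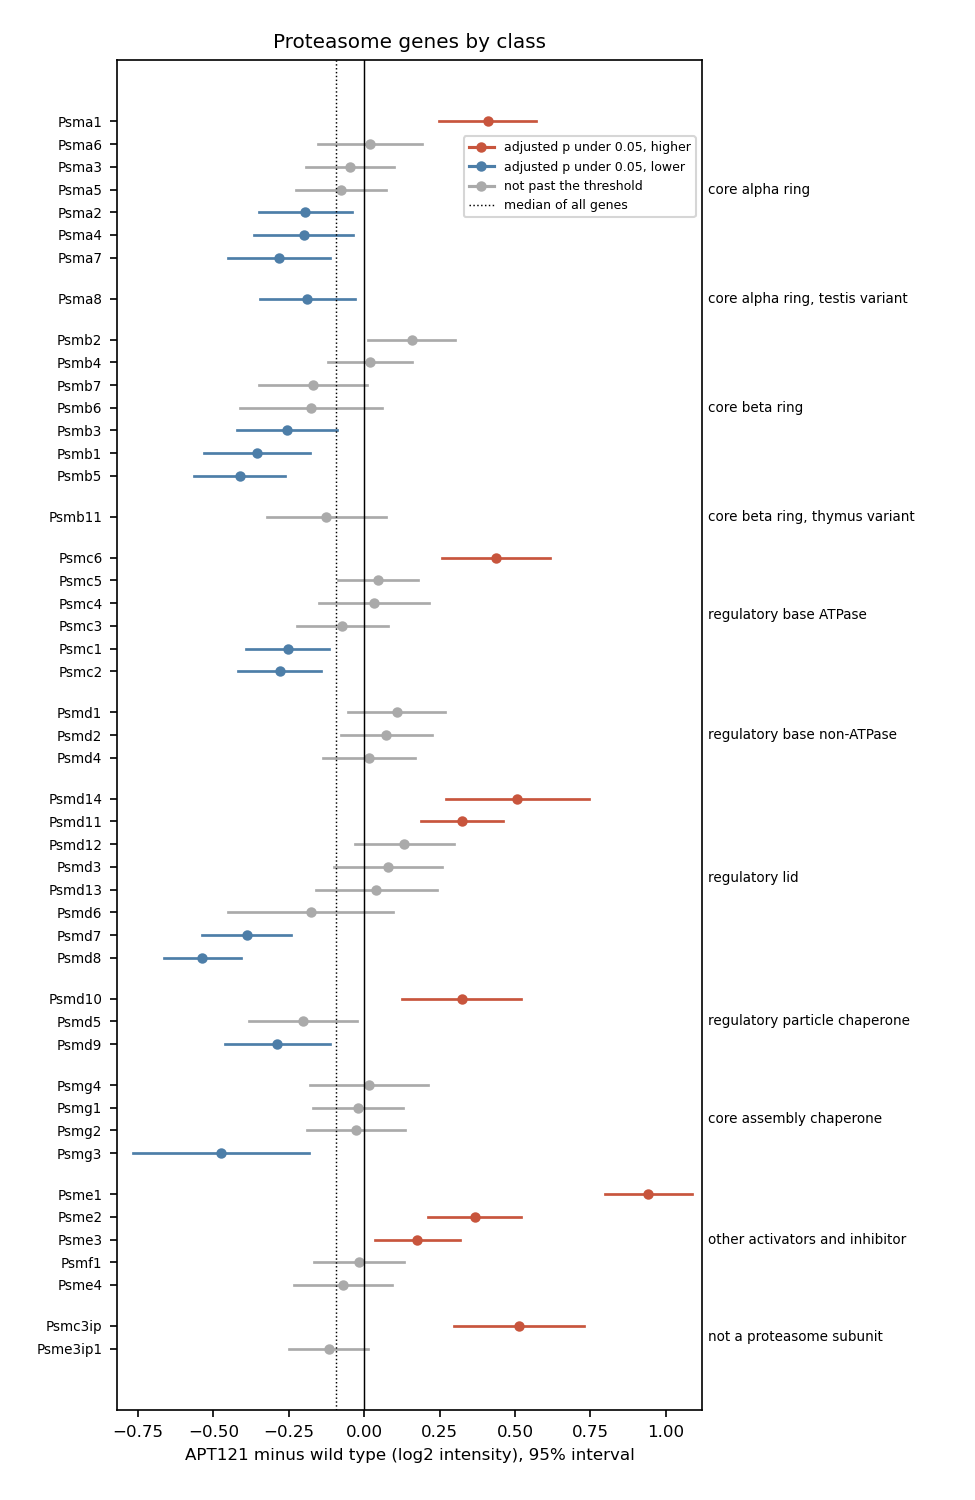
APT121 minus wild type difference of each of the 47 genes on the log2 intensity scale, with its 95% interval from the limma fit, grouped by class, with genes past an adjusted p of 0.05 in red (higher) or blue (lower). Psme1 lies farthest right at 0.94 and Psmd8 farthest left at -0.54, and 5 of the 7 core beta subunits lie left of 0.

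Promoter windows were compared because members of one complex moved in opposite directions. RefSeq windows (build GRCm38.p6, 250 bases before to 50 after the transcription start) were found for 39 of the 47 genes, in 43 windows, and the same search was run on all 32851 windows. Motifs were searched on both strands. TGACNNNGC, the core of the element that NRF1 and NRF2 bind with small Maf proteins, was in 6 of 43 windows (14.0%) against 12.4% of all windows. Its genes were Psmb5 and Psmd9, which were lower in APT121, Psmc6, which was higher, and Psmb6, Psmd12 and Psme4, which did not pass. CCAAT was in 34.9% of the windows against 37.4% of all, and GGGCGG, the GC box, in 55.8% against 35.7%. TTTNNCGC with C or G at both N, an E2F-type site, was in 4.65% (Psmc2 and Psmc4) against 2.26%. After the data had been seen, TGAGNNNGC (32.6% against 17.6%) and a pair of GAAA repeats set 2 bases apart, as in the interferon response element (11.6% against 3.44%), were added. Matches of different motifs overlapped in 5 places, each with a GGGCGG match, and 1 of them is the Psmd9 match printed here. A match is a description of letters and not a bound site. The stretches that hold the TGACNNNGC match are shown for a gene that fell, Psmb5 (chr14:54617999-54618078, minus strand), another that fell, Psmd9 (chr5:123228110-123228189), and one that did not pass, Psmb6 (chr11:70525277-70525356). Those of Psmc6, which rose (chr14:45329574-45329653), and Psmd12, which did not pass (chr11:107479278-107479357), have the match on the opposite strand. Each is written 5′ to 3′ on the gene's strand, with the match in capitals.
Psmb5: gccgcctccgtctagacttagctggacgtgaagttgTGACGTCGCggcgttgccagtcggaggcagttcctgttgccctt
Psmd9: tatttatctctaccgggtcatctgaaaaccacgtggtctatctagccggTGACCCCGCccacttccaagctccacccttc
Psmb6: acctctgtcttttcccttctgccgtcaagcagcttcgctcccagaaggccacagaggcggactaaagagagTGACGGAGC
Psmc6: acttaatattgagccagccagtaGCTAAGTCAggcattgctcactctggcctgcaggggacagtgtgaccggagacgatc
Psmd12: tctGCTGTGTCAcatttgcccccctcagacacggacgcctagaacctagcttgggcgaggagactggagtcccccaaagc
The matches begin 47, 31 and 9 bases before the start in Psmb5, Psmd9 and Psmb6, and 227 and 247 bases before it in Psmc6 and Psmd12.

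The alpha ring, which gates the core, had 1 gene higher and 3 lower among 7, with a median difference of -0.08. That is 57.1% past the threshold, beside 52.8% of all genes and 71.2% of genes above the median intensity, where all 7 lay. Psma1 (alpha6) read 9.08, 9.22, 9.30 and 9.08 log2 units in APT121 arrays 1 to 4, and 8.62, 8.78 and 8.93 at the lowest, median and highest wild type array. All 4 APT121 arrays lay above the 8 wild type arrays, and the difference was 0.41 ± 0.08 (SE), 1.33-fold (adjusted p = 0.000289). It was the only core subunit that rose, against the direction of the 6 others that passed. Psma7 (alpha4) read 8.13, 8.34, 8.52 and 8.17 in APT121 against 8.45, 8.55 and 8.75 in wild type, with APT121 array 3 inside the wild type range. It fell by 0.28 ± 0.08 on the log2 scale (adjusted p = 0.00776).

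Psma4 (alpha3) read 8.81, 8.96, 8.99 and 8.64 in APT121 against 8.91, 9.06 and 9.17 in wild type, and fell by 0.20 ± 0.08 (adjusted p = 0.0394). Psma2 (alpha2) fell by 0.20 ± 0.07 (adjusted p = 0.0349), and for both genes some APT121 arrays lay within the wild type range. Both calls lay near the threshold, and each was lost when any of several arrays was left out. Without wild type array 2, 6 or 7, or APT121 array 1 or 4, neither passed. Nor did Psma4 without wild type array 1 or 5, or Psma2 without wild type array 8 or APT121 array 3. The adjusted p in these fits was 0.0524 to 0.171 for Psma4 and 0.0545 to 0.087 for Psma2, and over all 22 alternatives it ran from 0.00609 to 0.171 and from 0.00169 to 0.248. Psma5 (-0.08 ± 0.07), Psma3 (-0.05 ± 0.07) and Psma6 (0.02 ± 0.08) did not pass.

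The beta ring, which holds the proteolytic sites, had 0 genes higher and 3 lower among 7 (42.9% past, beside 52.8%), with a median difference of -0.18. Psmb5, the beta5 subunit with chymotrypsin-like activity and the main target of bortezomib, read 8.14, 8.12, 8.34 and 8.00 in APT121 against 8.47, 8.57 and 8.69 in wild type. Every APT121 array lay below every wild type array, and Psmb5 fell by 0.41 ± 0.07, a 1.33-fold decrease (adjusted p = 0.000145). Its promoter is the first sequence printed above. Psmb1 (beta6, a structural subunit) read 8.26, 8.39, 8.20 and 7.92 against 8.46, 8.52 and 8.68, again with no overlap, and fell by 0.36 ± 0.08 (adjusted p = 0.0019).

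Psmb3 (beta3) read 9.12, 9.30, 9.49 and 9.19 in APT121 against 9.40, 9.53 and 9.70 in wild type, and APT121 array 3 lay inside the wild type range. It fell by 0.26 ± 0.08 (adjusted p = 0.0124), and its second transcript cluster gave -0.32, but without APT121 array 1 it did not pass (adjusted p = 0.06, range over the alternatives 0.00207 to 0.06). The other catalytic subunits overlapped with wild type. Psmb6 (beta1, caspase-like activity) read 9.33, 9.43, 9.45 and 9.17 against 9.17, 9.59 and 9.76, a difference of -0.18 ± 0.11 (adjusted p = 0.189). Psmb7 (beta2, trypsin-like activity) read 9.24, 9.38, 9.59 and 9.20 against 9.38, 9.53 and 9.68, a difference of -0.17 ± 0.08 (adjusted p = 0.0984). Psmb7 passed when APT121 array 3 was left out (-0.25, adjusted p = 0.0209, range over the alternatives 0.0209 to 0.477). It also passed with arrays centred on their median (adjusted p = 0.0313) and after repeated quantile normalisation (adjusted p = 0.0296).

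Psmb4 (beta7) differed by 0.02 ± 0.06 and Psmb2 (beta4) by 0.16 ± 0.07 (adjusted p = 0.0614), neither past the threshold. Psmb2 passed as higher without wild type array 7 (0.18, adjusted p = 0.037) or without APT121 array 1 (0.19, adjusted p = 0.0474), with a range over the alternatives of 0.0274 to 0.647. The inducible subunits that replace the catalytic ones in the immunoproteasome, outside the rule, all rose. Psmb8, which takes the place of Psmb5, rose by 2.30, Psmb9, which takes that of Psmb6, by 1.24, and Psmb10, which takes that of Psmb7, by 0.71. Psmb8 and Psmb9 were both highest in APT121 array 3, at 8.28 and 8.93.

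**Figure D2:**
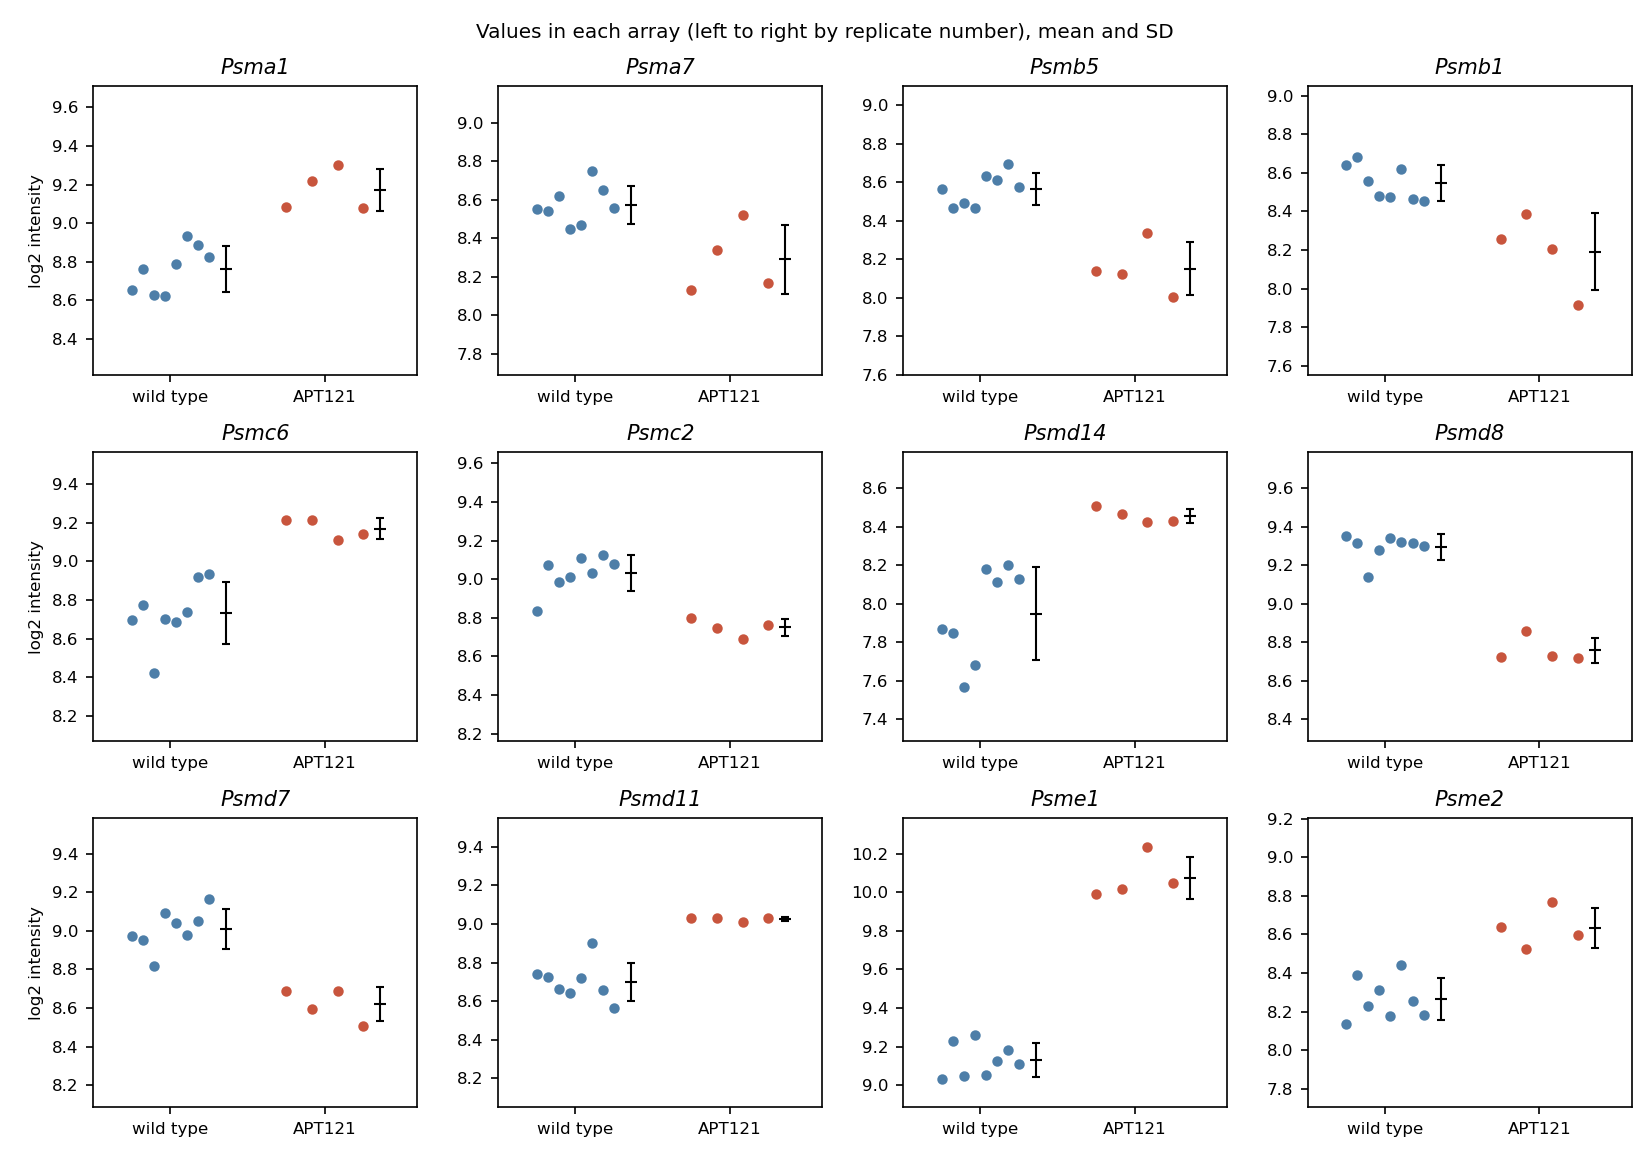
Log2 intensity in each of the 12 arrays for 12 proteasome genes, with wild type arrays 1 to 8 and APT121 arrays 1 to 4 as points from left to right and the mean and SD of each group beside them; every panel spans the same 1.5 log2 units. Psma7 has 1 APT121 point, array 3 at 8.52, among those of wild type, and the other 11 genes show groups that do not overlap.

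The ATPase ring of the base had 1 gene higher and 2 lower among 6 (50% past, beside 52.8% of all genes), with a median difference of -0.02. Psmc6 (Rpt4) read 9.21, 9.21, 9.11 and 9.14 in APT121 against 8.42, 8.72 and 8.94 in wild type, and all APT121 arrays lay above. It rose by 0.44 ± 0.08, 1.35-fold (adjusted p = 0.000418). Psmc2 (Rpt1) read 8.80, 8.75, 8.69 and 8.76 against 8.83, 9.05 and 9.13 and fell by 0.28 ± 0.06 (adjusted p = 0.00169). Psmc1 (Rpt2, whose tail opens the core gate) read 8.64, 8.69, 8.73 and 8.81 against 8.88, 8.96 and 9.17 and fell by 0.25 ± 0.07 (adjusted p = 0.0041). For both genes that fell, every APT121 array lay below every wild type array. These subunits form a single hexamer, yet Psmc3 (-0.07), Psmc4 (0.03) and Psmc5 (0.05), the other ring members, did not pass. The scaffold and receptor subunits of the base, Psmd1 (0.11), Psmd2 (0.07) and Psmd4 (0.02), did not pass either. Psmd2 (Rpn1) and Psmd4 (Rpn10) bind ubiquitin or ubiquitin-like domains.

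Among the 17 regulatory subunits, the lid held the largest differences in both directions. Of its 8 genes within the rule 2 were higher and 2 lower (50% past, beside 52.8% of all genes), with a median difference of 0.06. Sem1, a lid subunit without a Psm symbol, was outside the rule and is given below. Psmd14 (Rpn11), the deubiquitinase that cuts the chain from the substrate, read 8.50, 8.46, 8.42 and 8.43 in APT121. Wild type read 7.57, 7.99 and 8.20 for it, so the groups did not overlap, and Psmd14 rose by 0.51 ± 0.11, 1.42-fold (adjusted p = 0.00128). Its wild type arrays were widely spread, with an SD of 0.24 against 0.04 in APT121. Psmd7 (Rpn8), which forms a dimer with Psmd14, moved the other way: it read 8.69, 8.60, 8.69 and 8.50 against 8.82, 9.01 and 9.16, and fell by 0.39 ± 0.07 (adjusted p = 0.00021). All its APT121 arrays lay below wild type.

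Psmd8 (Rpn12) had the largest decrease among the 47. It read 8.73, 8.86, 8.73 and 8.72 in APT121 against 9.14, 9.31 and 9.35 in wild type, and fell by 0.54 ± 0.06, a 1.45-fold decrease (adjusted p = 1.5e-06). Its lowest wild type array thus lay above its highest APT121 array. Psmd11 (Rpn6), a lid scaffold, rose by 0.32 ± 0.06, with 9.01 to 9.03 in APT121 against 8.57 to 8.90 in wild type (adjusted p = 0.000548). Psmd6 (-0.18), Psmd13 (0.04), Psmd3 (0.08) and Psmd12 (0.13) did not pass.

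Assembly chaperones, which help build the particles and are absent from the finished protease, passed the threshold in 3 of 7 cases, a share below the 52.8% of all genes. Psmd10 (gankyrin), a base chaperone also known to bind pRb, read 7.79, 8.02, 7.81 and 7.77 in APT121 against 7.30, 7.46 and 7.78 in wild type. Its lowest APT121 array fell just inside the wild type range, and it rose by 0.32 ± 0.09 (adjusted p = 0.00863). Psmd10 did not pass against wild type arrays 1 to 4 alone or when wild type arrays 5, 6 and 7 were dropped (adjusted p = 0.11 and 0.0535, range over the alternatives 0.000763 to 0.126). The highest of these came after repeated quantile normalisation (0.17, adjusted p = 0.126). Psmd9 (p27) read 7.07, 7.13, 7.10 and 6.94 against 7.16, 7.30 and 7.58, with no overlap, and fell by 0.29 ± 0.08 (adjusted p = 0.00784). Psmd5, the third base chaperone, differed by -0.20 ± 0.08 (adjusted p = 0.0548), and it passed without wild type array 1, wild type array 3 or APT121 array 2 (adjusted p = 0.0473, 0.00915 and 0.0498, range over the alternatives 0.00333 to 0.335). Psmd5 also passed with arrays centred on their median (-0.25, adjusted p = 0.0191), after repeated quantile normalisation (-0.33, adjusted p = 0.00333), without low genes and with trend and robust variance.

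Among the core chaperones, Psmg3 (PAC3) read 5.21, 4.90, 5.61 and 4.99 in APT121 against 5.44, 5.61 and 6.09 in wild type. APT121 array 3 matched the wild type median while the other 3 lay below every wild type array. Psmg3 fell by 0.48 ± 0.14 (adjusted p = 0.00863), the least precise difference of the 47. Psmg1 (-0.02 ± 0.07), Psmg2 (-0.03 ± 0.08) and Psmg4 (0.02 ± 0.09) did not pass.

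The activators that cap the core in place of the regulatory particle gave the largest increase. Of the 5 activator and inhibitor genes 3 were higher and 0 lower (60.0% past, beside 52.8% of all genes). All 5 had a mean intensity above that of the median gene, where 71.2% of genes passed. Psme1 and Psme2 encode the alpha and beta subunits of PA28, an interferon-inducible ring that favours the release of antigenic peptides. Psme1 read 9.99, 10.02, 10.24 and 10.05 in APT121 against 9.03, 9.12 and 9.26 in wild type, and rose by 0.94 ± 0.07, 1.92-fold (adjusted p = 9.44e-09). Psme2 read 8.64, 8.52, 8.77 and 8.59 against 8.14, 8.24 and 8.44, and rose by 0.37 ± 0.07 (adjusted p = 0.000535). Neither gene overlapped between genotypes, and both were highest in APT121 array 3, where the summed myeloid markers (1145) and lymphocyte markers (121) were also highest and Psmb8 and Psmb9 peaked. Below array 3 the order differed. The myeloid sum was lowest in APT121 array 4 (500), where Psme1 was next highest (10.05). Psme2 was lowest in APT121 array 2 (8.52), where the myeloid sum was next highest (836). The lymphocyte sums did not overlap between genotypes, but the 5 measured markers differed from each other. The T cell gene Cd3g rose by 1.59 and Cd3e by 0.24, and Ms4a1 fell by 0.29. Cd2 (0.25) and Cd79a (-0.06) did not pass, and all 5 had a mean intensity below that of the median gene. The part of immune cells in the rise of Psme1 and Psme2 was not tested.

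The start of Psme1 holds such a pair of GAAA repeats on the opposite strand, beginning 10 bases after the start, shown in capitals within chr14:55578484-55578513 because this was the gene with the largest change.
Psme1: tgcaggtttcgagctgtgcTTTCGCTTTCc
The motif was also found in Psmb3 and Psmd9, which fell, and in Psmd4 and Psmg4, which did not pass.

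Psme3, the nuclear activator PA28 gamma, read 9.03, 9.07, 8.95 and 9.02 in APT121 against 8.67, 8.84 and 9.00 in wild type, with APT121 array 3 inside the wild type range. It rose by 0.18 ± 0.07 (adjusted p = 0.0369). It did not pass when any single array among wild type 1, 2, 3 and 7 and APT121 1, 2 and 4 was left out (adjusted p = 0.0549 to 0.103). With arrays centred on their median its adjusted p was 0.124, and over the alternatives it ran from 0.0198 to 0.283. Psme4, the activator PA200, differed by -0.07 ± 0.08 and Psmf1, the inhibitor PI31, by -0.02 ± 0.07, and neither passed.

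The tissue-restricted variants gave low intensities. Psma8, which replaces Psma7 in testis, read 3.28, 3.08, 3.04 and 3.19 in APT121 against 3.13, 3.38 and 3.45 in wild type. It fell by 0.19 ± 0.07 (adjusted p = 0.0427), with overlap, and 8 of the 12 fits that left out a single array did not call it (wild type 1, 4, 5, 6 or 7, APT121 2, 3 or 4; adjusted p = 0.0604 to 0.127, and 0.0126 to 0.385 over the alternatives). Psmb11, the thymus beta5 variant, read 3.85, 3.69, 3.92 and 3.99 against 3.83, 3.95 and 4.27, a difference of -0.13 ± 0.09 (adjusted p = 0.262). Both had a mean intensity below that of the median gene.

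The 2 genes that share the symbol pattern without being subunits differed from each other. Psmc3ip (HOP2), a cofactor of homologous recombination, read 5.38, 5.91, 5.66 and 5.29 in APT121 against 4.94, 5.02 and 5.27 in wild type. The groups were separate by a small margin, and Psmc3ip rose by 0.51 ± 0.10, 1.43-fold (adjusted p = 0.000498). Psme3ip1, a partner of Psme3, differed by -0.12 ± 0.06 (adjusted p = 0.12).

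Core and regulatory subunits were then set side by side. Of 14 core subunits 1 was higher, 6 lower and 7 did not pass, with a median difference of -0.17. Of 17 regulatory subunits 3 were higher, 4 lower and 10 did not pass, with a median difference of 0.04. The lid subunit Sem1, outside the rule, was not among the 17. Thus 50% of core and 41.2% of regulatory subunits passed, beside 52.8% of all genes. All 31 subunits had a mean intensity above that of the median gene, where 71.2% of genes passed and the median difference was 0.03. With arrays centred on their median, the medians were -0.23 for the core, -0.01 for the regulatory particle and -0.15 for all genes. After repeated quantile normalisation the regulatory median was -0.08. The difference between the particles was not tested.

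The core particle also varied among the APT121 arrays. Relative to the wild type mean of each gene, the median core deviation was -0.20, -0.09, 0.01 and -0.29 in APT121 arrays 1 to 4, and the regulatory one was -0.00, -0.02, 0.02 and 0.06. In the 8 wild type arrays the core ranged from -0.12 to 0.10 and the regulatory particle from -0.15 to 0.13. APT121 arrays 1 and 4 thus lay below all wild type arrays for the core, and arrays 2 and 3 lay among them. Of the 14 core genes 11 were highest in array 3 among the APT121 arrays, and 8 were lowest in array 4 and 5 in array 1. The summed myeloid markers were 790, 836, 1145 and 500 in the 4 APT121 arrays, and the summed fibroblast markers 2329, 2447, 2888 and 1680. Array 3 was highest and array 4 lowest in both, as for the core, and also for the basal (402 and 209), smooth muscle (8380 and 6199) and adipose sums (156 and 115). The luminal sum had the same order (17651 and 12947), carried by the secretory genes Tgm4 (12.42 and 10.04 log2 units) and Pbsn (10.30 and 9.03). The remaining luminal markers divided. Cdh1, an epithelial adhesion gene, ran the other way (10.91 in array 3 and 11.26 in array 4), as did Krt8 (11.55 and 11.62) and Hoxb13 (9.20 and 9.33). Epcam (11.32 and 11.21) and Krt18 (11.47 and 11.43) were higher in array 3. Of the other sums, the endothelial ones were 226, 234, 221 and 205 in APT121 arrays 1 to 4, highest in array 2. The lymphocyte sums were 85, 107, 121 and 87, lowest in array 1. The seminal vesicle sums were 1431, 15001, 9550 and 11783, highest in array 2 and lowest in array 1. The part of these markers in the core values was not tested. Without APT121 array 1 the core count was 2 higher and 3 lower, and 46.7% of all genes passed.

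**Figure D3:**
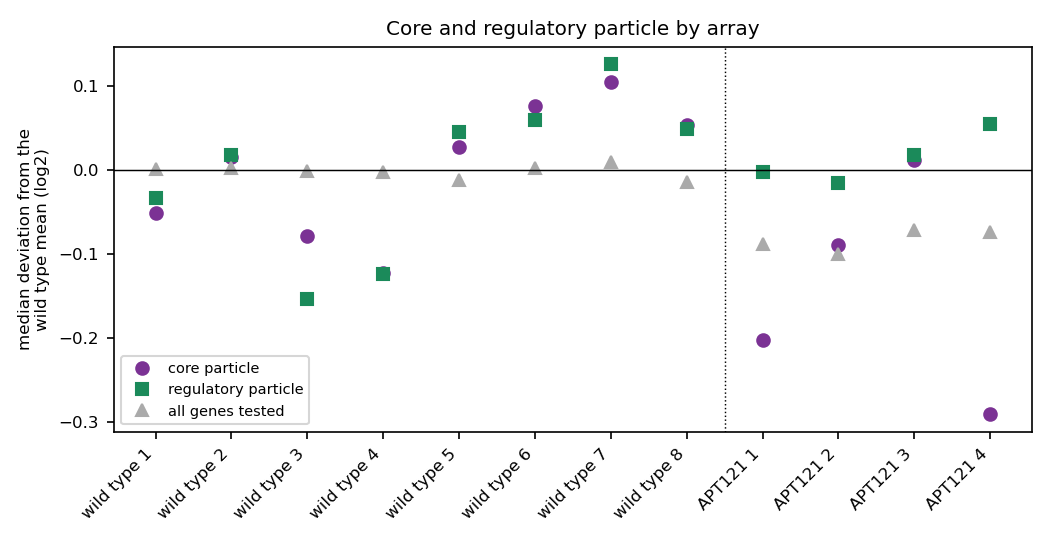
Median deviation from the wild type mean, in log2 units, of the core subunits, the regulatory subunits and all genes tested, in each of the 12 arrays. The core lies at -0.20 and -0.29 in APT121 arrays 1 and 4, and within the wild type range at -0.09 in array 2 and near 0 in array 3. Both particles lie above 0 in wild type arrays 5 to 8.

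Wild type arrays themselves differed in proteasome transcripts. The mean of wild type arrays 5 to 8 was above that of arrays 1 to 4 for 37 of the 47 genes and for 17 of 17 regulatory subunits, with medians of 0.11 and 0.12, against 9997 of 19935 genes and a median of 0.00. The labels give these numbers no meaning beyond replicate numbers. The values of the 4 and 4 arrays were separate for 11 of the 47 genes (23.4%) and for 10.5% of all genes. The largest were Psmd6 (0.47), Psmd14 (0.41), Psmb6 (0.37) and Psmd13 (0.30), higher in arrays 5 to 8. Calls changed with the wild type arrays used. Against arrays 5 to 8 alone Psma4 and Psme3 did not pass, while Psmb6, Psmb7, Psmd5 and Psmd6 passed as lower; Psmb6 then differed by -0.36 and Psmd6 by -0.41 (adjusted p = 0.00319 and 0.00244, highest over the alternatives 0.967 and 0.782). Against arrays 1 to 4 alone Psma2, Psma4, Psma8 and Psmd10 did not pass, while Psmb2 and Psmd12 passed as higher. With arrays 1 to 4 alone the core median was -0.09 and the regulatory median 0.13.

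Genes that work beside the proteasome were taken from lists of its pathway. Among 9 partners and maturation factors 3 were higher and 1 lower (44.4% past, beside 52.8% of all genes), and 2 more of the list were not analysed here. Uchl5, a deubiquitinase docked on the regulatory particle, rose by 0.66, and Zfand5, an activator, by 0.47. Sem1, the smallest lid subunit, which has no Psm symbol, read 8.10, 8.29, 8.46 and 8.11 against 8.68, 8.90 and 8.99. It fell by 0.63 ± 0.08, more than any of the 47. Its APT121 values were highest in array 3 and lowest in arrays 1 and 4, as for the core median. Of 7 genes of the NRF1 pathway 3 were higher and 2 lower (71.4% past, beside 52.8% of all genes). Of these 7, 6 had a mean intensity above that of the median gene, where 71.2% of genes passed. Nfe2l1 itself differed by -0.14 (adjusted p = 0.16), the small Maf partner Maff rose by 0.44, Mafk fell by 0.44, and the related factor Nfe2l2 rose by 0.34. Nfe2l2 did not pass after repeated quantile normalisation (0.18, adjusted p = 0.0765).

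Ubiquitin activation, shuttling and unfolding genes divided, with 2 of 8 higher and 4 lower (75% past, beside 52.8% of all genes), and 6 more of the list were not analysed here. All 8 had a mean intensity above that of the median gene, where 71.2% of genes passed. Ubqln2, a shuttle that carries ubiquitinated proteins to the proteasome, rose by 0.90 and Uba6, a ubiquitin-activating enzyme, by 0.67. Ufd1, an adaptor of the segregase p97, fell by 0.44. Of 23 ubiquitin ligases and regulators of the cell cycle 12 were higher, beside 22.8% of all genes, and 1 was lower. Among these, 20 had a mean intensity above that of the median gene, where 3770 of 9967 genes were higher and 3326 lower. Fbxo5 (EMI1), an inhibitor of the anaphase-promoting complex, rose by 2.86, Cdc20, its activator, by 1.97 and Skp2, the receptor that targets p27Kip1, by 1.36. Cdc23, a subunit of that complex, fell by 0.25. The median difference was 0.15 for the cell cycle list and -0.03 for the proteasome genes.

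**Figure D4:**
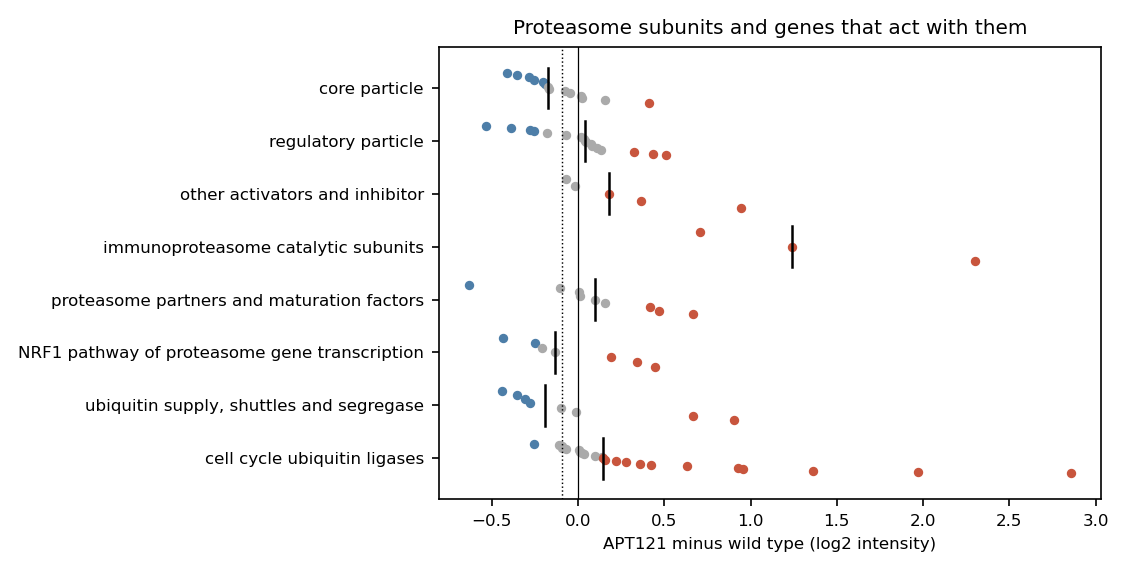
APT121 minus wild type difference of each gene on the log2 scale, by class of proteasome gene and by list of related genes, with black bars at medians, a dotted line at the median of all genes, and genes past the threshold in red (higher) or blue (lower). The proteasome classes stay within -0.54 to 0.94, while cell cycle ligases reach 2.86 and immunoproteasome subunits 2.30.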

How the data were processed

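The deposited table holds RMA values that the authors made, per the submitters' processing notes, as a linear intensity for each of 28815 transcript clusters on 12 arrays. Neither software version nor genome build is stated in the sources used. Because RMA equalises arrays, a shift common to all transcripts would not be seen. Log2 was taken here, only clusters with a single symbol were kept, and the cluster with the highest mean stood for a gene. The genotype comparison used limma 3.58.1 (R 4.3.3, genotype alone, two-sided, Benjamini-Hochberg over 19935 genes, threshold 0.05), in place of SAM, which the design text names and which was not run. The fit was also run on simulated data, with changes added to few genes and independent noise. In the arrays themselves far more genes differed, so nothing is drawn from that run. No filter on low values was applied, detection calls were not used, and the number of arrays limits precision. Exact permutation tests over 495 groupings, alternative scalings, filters and left-out arrays were also run.

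Named with values in each APT121 array and the lowest, median and highest wild type array were the 3 largest changes past the threshold in each class, the catalytic subunits, the variants, Psmc3ip and members that moved against their class, and the others by difference. Pathway genes were the 3 largest per list; Psmd11, Psma2, Nfe2l1, Cdc23 and the promoters shown were added after their values were seen. Members and lists were chosen with earlier results of these data known. The transgene was not analysed here.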

Additional observations from a re-analysis of the deposited data

Results flagged for a closer look

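In 9 of 124 groups tested, over 62 genes (the 47 and 15 related ones), the highest or lowest array stood apart from the rest of its group; chance gives about 1 group in 20. All values are log2 intensities. The immunoproteasome genes outside the rule led in APT121 array 3, where Psmb8 read 8.28 (next highest 7.82) and Psmb9 8.93 (next 8.23). Psmd8 had such an array in each genotype: APT121 array 2 was highest at 8.86 (next 8.73) and wild type array 3 lowest at 9.14 (next 9.28), and the groups remained apart. Psmd11 was lowest in APT121 array 3 at 9.01 (next 9.03), a gap of small size within a tight group. In wild type, Psma3 was highest in array 8 at 8.99 (next 8.84) and Psmc1 in array 2 at 9.17 (next 9.00). Psmc2 was lowest in wild type array 1 at 8.83 (next 8.99) and Psmf1 in array 3 at 7.40 (next 7.63).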

How the results depend on the processing

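Of the 22 proteasome genes past the threshold, 13 passed under every alternative in which they were fitted and 9 lost the call in at least 1; 10 of the 25 others gained it, and 0 reversed. Exact permutation gave an unadjusted p under 0.05 for 25 of 47 genes, with 0.00202 the smallest p possible. It was run for the 47 alone, so no share over all genes stands beside this count. Because these p-values are unadjusted, the count cannot be set against the 22 calls. Counts for the 47 were 8 higher and 16 lower with centred arrays, and 7 and 18 after repeated quantile normalisation (9 and 13 as reported). Of all genes, 59.8%, 47.0% and 52.8% passed in these fits, in that order. After repeated quantile normalisation the regulatory median was -0.0799. With a minimum of 1.5-fold, 1 gene was higher and 0 lower among the 47, and 0 in either direction in the core and in the regulatory particle. Against wild type arrays 1 to 4 alone the core median was -0.0885. The count of higher core genes was 2, in place of 1, with those arrays, without the lowest 50% of genes, with trend and robust variance and without wild type arrays 5, 6 and 7. A fit with a replicate block uses only arrays numbered 1 to 4. There 7 of the 47 were lower, 2 core genes higher, 2 regulatory genes lower and the core median was -0.0885. The same arrays without a block gave 10 of the 47 lower, 2 core genes higher, 4 regulatory genes lower and the same core median. Over all genes 4027 were higher and 4787 lower with the block. Without it the counts were 4069 and 4830 with the same arrays, and 4540 and 5987 with all arrays. Psmc1, Psmc2 and Psmd9 missed the threshold in the block fit alone (adjusted p = 0.0524, 0.0544 and 0.0851, and as low as 0.000193, 0.00012 and 0.000206 over the alternatives). Same-numbered APT121 and wild type arrays had correlations of 0.07, 0.06, 0.06 and -0.03 in their deviations, so the numbers were not taken to pair arrays. The cause of these changes was not tested.

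Leaving out single arrays gave 8 to 9 higher and 10 to 14 lower among the 47, 1 to 2 higher and 3 to 6 lower in the core, and always 3 higher and 4 lower in the regulatory particle. The medians ran from -0.20 to -0.12 for the core and from 0.01 to 0.07 for the regulatory particle. Differences near 0.2 on the log2 scale were those that crossed the threshold most often, and signal over background was not assessed.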
